A study of Mus musculus with 1479 samples.

Results

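The genes of platelet-derived growth factor (PDGF) signalling were followed in single cells of the adult mouse urinary bladder. The set had 7 members, taken by gene symbol from a table of 46517 genes: the receptors Pdgfra and Pdgfrb, the receptor-like gene Pdgfrl, and the ligand genes Pdgfa, Pdgfb, Pdgfc and Pdgfd. All 7 had reads in the table. Each of the 1479 samples was 1 cell with its own Smart-seq2 library, a method that reads full-length cDNA and counts reads rather than molecules. Its label gave the plate, the mouse line and 1 of 11 clusters, which the authors had derived from these same values. The study described cluster 10 (8.45% of the cells) as vascular mural cells, the pericytes and smooth muscle cells around vessels, and cluster 5 (76 cells, 5.14%) as fibroblasts lying under the epithelium. The other 9 clusters (1278 cells) were taken as fibroblasts.

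All mice were male and 10 to 20 weeks old. PdgfraGFP mice (9.94% of the cells) carried a nuclear GFP placed at the Pdgfra gene itself, and PdgfrbGFP mice (54.8%) carried a GFP transgene driven by Pdgfrb sequences. Cspg4dsRED (13.7%) and Acta2GFP (8.72%) were transgenic lines driven by sequences of Cspg4, a pericyte proteoglycan gene, and of Acta2, the gene of smooth muscle actin. C57BL6 mice (12.8%) had no reporter, and the other lines had been backcrossed to the same strain. According to the study's methods, sorted cells were positive for a reporter or for an antibody to PDGFRα or PDGFRβ and negative for the endothelial protein CD31, elastase was added to the digest of Acta2GFP tissue only, and cells without Pdgfra or Pdgfrb expression were removed. Levels and shares of the 2 receptors among these cells were therefore set in part by the sort. No label gives the animal a cell came from, and combined reporter strains were also in use. Whether transcripts of a reporter allele added reads to the gene it was built on was not tested.

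PDGF ligands are secreted dimers. Dimers of PDGF-A, PDGF-B and PDGF-C bind the receptor PDGFRα, while PDGF-B and PDGF-D dimers bind PDGFRβ. PDGF-C and PDGF-D are secreted with a CUB domain that proteases such as tissue plasminogen activator and urokinase remove before the ligand can act. In blood vessels, PDGF-B from endothelial cells recruits pericytes that carry PDGFRβ, and PDGFRα is widely used as a surface marker of fibroblasts. Pdgfrl encodes a secreted protein that resembles the ligand-binding part of the receptors, and its ligand is not established.

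In the GRCm38 assembly Pdgfra (ENSMUSG00000029231) lies on chromosome 5 from 75152292 to 75198215 and Pdgfrb (ENSMUSG00000024620) on chromosome 18 from 61045150 to 61085061. Pdgfrl (ENSMUSG00000031595) lies on chromosome 8 from 40926212 to 40990785. Of the ligand genes, Pdgfa (ENSMUSG00000025856) lies on chromosome 5 from 138976014 to 138997370, Pdgfb (ENSMUSG00000000489) on chromosome 15 from 79995874 to 80014977, Pdgfc (ENSMUSG00000028019) on chromosome 3 from 81036416 to 81214040 and Pdgfd (ENSMUSG00000032006) on chromosome 9 from 6168584 to 6378850. Pdgfa and Pdgfb are read from the minus strand and the others from the plus strand.

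The sources used here state no strand setting for the counting, so reads from overlapping genes cannot be told apart. Within the Pdgfra gene, the small gene Mir7025 on the same strand was assigned 4111 reads, and the antisense genes Gm42802 and Gm42803 were assigned 378 and 412. The antisense gene 6330403L08Rik at Pdgfa was assigned 1081 reads and Gm16000 at Pdgfc 356 reads. Compared with these, the members had 226039 reads for Pdgfra, 176244 for Pdgfrb, 57657 for Pdgfrl, 45628 for Pdgfd, 8748 for Pdgfa, 5547 for Pdgfc and 1280 for Pdgfb over all cells. Pdgfra was read in 92.3% of the 1479 cells and Pdgfrb in 88.8%, against 25.8% for Pdgfa, 15.5% for Pdgfc and 4.80% for Pdgfb.

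The 3 promoters printed here belong to the members whose levels differed most between groups of cells and for which RefSeq (GRCm38.p6) gave a start site. Each run holds the 150 bases before the start, read 5′ to 3′ on the strand of the gene. Pdgfra is at chr5:75152101-75152250 on the plus strand, Pdgfa at chr5:138994945-138995094 on the minus strand for its outermost start, and Pdgfc at chr3:81036266-81036415 on the plus strand.
Pdgfra: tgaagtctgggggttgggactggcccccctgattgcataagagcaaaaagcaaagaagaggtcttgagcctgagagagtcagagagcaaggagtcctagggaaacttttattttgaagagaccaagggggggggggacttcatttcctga
Pdgfa: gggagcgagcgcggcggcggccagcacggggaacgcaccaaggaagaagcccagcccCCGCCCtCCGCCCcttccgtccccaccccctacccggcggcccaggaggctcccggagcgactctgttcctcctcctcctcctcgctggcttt
Pdgfc: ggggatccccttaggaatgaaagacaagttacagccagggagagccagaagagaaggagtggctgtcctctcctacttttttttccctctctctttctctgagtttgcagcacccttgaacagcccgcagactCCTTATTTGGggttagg
Capitals mark matches, on either strand, to 3 motifs: the GC box GGGCGG, the TATA box TATAAA and the CArG box, the site of serum response factor (CC, 6 bases of A or T, GG). In the 250 bases before the start, 32.7% of 32851 mouse promoters held the GC box, 12.4% the TATA box and 1.47% the CArG box. The Pdgfa window held 2 GC boxes, written on the opposite strand as CCGCCC, the Pdgfc window held 1 CArG box, and the Pdgfra window held none of the 3. CpG dinucleotides numbered 28 in the Pdgfa window, 4 in that of Pdgfra and 3 in that of Pdgfc, beside a median of 6 over all promoters. These matches are letters in a window and say nothing about binding.

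The cells differed in depth and the clusters kept their labels. Totals ran from 50276 to 1446059 reads per cell with a median of 214893, and the plate bladder_881s was the deepest with a median of 384099 reads. The level of a gene is its reads per 500000 reads of mouse genes in a cell, taken as a mean within each line with at least 3 cells and then as a mean ± SD of these lines. Cluster 10 carried all 9 mural markers looked at, among them Acta2, Myh11 and Notch3, with a summed level of 10595 over 4 lines (range 8133 to 12820), against 578 in cluster 5 and 116.1 in the other fibroblast clusters. The 8 fibroblast markers, among them Col1a1 and Dcn, summed to 17798 in the other fibroblast clusters and 1318 in cluster 10. Because the clusters were made with these same values, a test between them only asks whether a difference recurs from line to line and cannot bear out the clusters themselves. The study states that its cells came from a number of male mice, and the sources used here do not tie single cells to animals, so p-values measure only the spread between these sums.

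**Figure D1:**
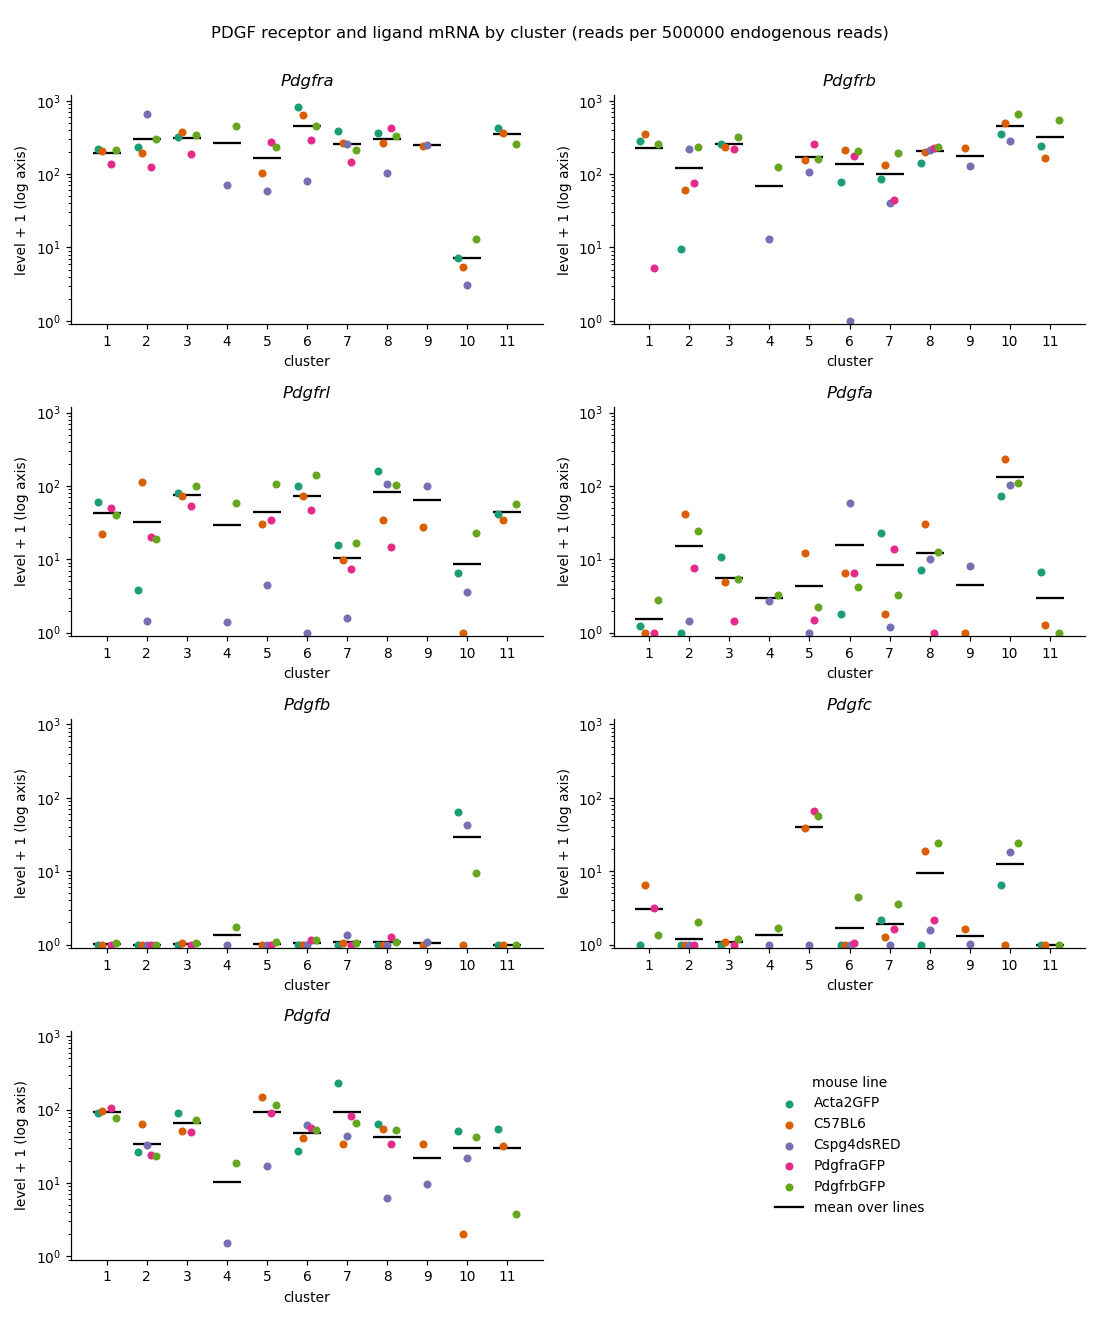
Level of each member (reads per 500000 endogenous reads, plus 1, log axis) in clusters 1 to 11, with 1 point for each mouse line with at least 3 cells and a bar at the mean over lines. Pdgfra dropped from 165.96 in cluster 5 to 6.14 in cluster 10, Pdgfa and Pdgfb were highest in cluster 10, and Pdgfc was highest in cluster 5.

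Pdgfra, the receptor for PDGF-A and PDGF-C, was present in every fibroblast cluster and close to absent from cluster 10. In cluster 10 its level was 2.12 in Cspg4dsRED, 4.34 in C57BL6, 6.11 in Acta2GFP and 11.996 in PdgfrbGFP cells. In the 10 fibroblast clusters together the same lines had 216.6, 324.3, 383.8 and 314.9, so that the classes did not overlap. Relative to the fibroblast level of its own line, cluster 10 held 1.93% ± 1.28 (SD, n = 4 lines) of Pdgfra. The same measure gave 2.45% ± 2.15 for Cd34, 3.52% ± 2.49 for Lum, 7.17% ± 2.04 for Col1a1 and 13.5% ± 13.97 for Dcn. The remaining Pdgfra signal thus lay at the low end of the range of other fibroblast genes read in cluster 10. Ordered by their means, the clusters ran from 455 ± 284.7 in cluster 6 and 349 ± 81.5 in cluster 11 to 194.9 ± 38.4 in cluster 1, 165.96 ± 102.3 in cluster 5 and 6.14 ± 4.23 in cluster 10. Of the 10 pairs of neighbours in this order, 2 differed by more than the larger of their SDs, clusters 9 and 1 and clusters 5 and 10.

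Pdgfrb, the receptor for PDGF-B and PDGF-D, was shared by both kinds of cells. Its level in cluster 10 was 282.4 in Cspg4dsRED, 348 in Acta2GFP, 492 in C57BL6 and 658 in PdgfrbGFP cells. In the fibroblast clusters it was 113.5, 211.4, 194.9 and 248.3 in the same lines. Cluster 10 was the higher class within each line, and the ranges over lines did not overlap, but the gene was not called in the test given below. Over the clusters Pdgfrb ran from 445 ± 166.9 in cluster 10 and 315.5 ± 196.99 in cluster 11 down to 99.2 ± 65.4 in cluster 7 and 68.1 ± 79.2 in cluster 4, and no pair of neighbours differed by more than the larger SD. Per kilobase of merged exon, where different genes can be compared, the level in the 9 fibroblast clusters was 29.7 for Pdgfra and 32.9 for Pdgfrb. With the longest coding transcript as the length it was 43.5 and 33.2, so which receptor was higher depended on the gene model.

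Pdgfrl followed the fibroblasts. In cluster 10 its level was 0 in C57BL6, 2.59 in Cspg4dsRED, 5.59 in Acta2GFP and 21.99 in PdgfrbGFP cells, against 51.8, 72.6, 64.3 and 81.95 in the fibroblast clusters, and the ranges over lines did not overlap. A single cell held 43.9% of the Pdgfrl reads of cluster 10. It was uneven among the fibroblasts, with 82.3 ± 58.9 in cluster 8 and 75.4 ± 19.1 in cluster 3 but 9.28 ± 6.21 in cluster 7, whose level was next to that of cluster 10 (7.54 ± 9.90). No pair of neighbouring clusters differed by more than the larger SD.

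Of the ligands, Pdgfa belonged mostly to cluster 10. Its level there was 72.5 in Acta2GFP, 103.1 in Cspg4dsRED, 108.7 in PdgfrbGFP and 235.4 in C57BL6 cells, the last from 3 cells. In the fibroblast clusters it was 7.44, 6.73, 4.94 and 8.76 in these lines. The classes did not overlap, and cluster 10 held 52.2% of all Pdgfa reads in 72 of its cells. Fibroblast clusters ran from 14.6 ± 24.5 in cluster 6 and 14.1 ± 17.5 in cluster 2 to 0.513 ± 0.873 in cluster 1. Neighbours that differed by more than the larger SD were clusters 10 and 6 and clusters 4 and 1.

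Pdgfb was a gene of few cells. Its level in cluster 10 was 0 in the 3 C57BL6 cells, 8.35 in PdgfrbGFP, 42.1 in Cspg4dsRED and 62.5 in Acta2GFP cells, and at most 0.192 in the fibroblast clusters of any line. Of all 1280 Pdgfb reads, 95.2% lay in 18 cells of cluster 10. The highest cell held 356 reads, 29.2% of those in cluster 10, and 3 cells held at least 50% of them.

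Pdgfc and Pdgfd had their highest means in fibroblast clusters, but for Pdgfc cluster 10 came next after cluster 5, with 11.6 ± 10.7. Pdgfc was highest in cluster 5, with a level of 0 in the 3 Cspg4dsRED cells, 37.3 in C57BL6, 54.7 in PdgfrbGFP and 65.7 in PdgfraGFP cells. The other fibroblast clusters together had 0.0723, 2.27, 5.01 and 0.433 in these lines, and among them cluster 8 stood first with 8.53 ± 11.0. In cluster 8 the level was 22.9 in PdgfrbGFP and 18.04 in C57BL6 cells but 1.16 or less in the other 3 lines. Cluster 5 held 46.3% of all Pdgfc reads, cluster 8 held 25.4% and cluster 10 held 13.9%. The Pdgfd level ran from 92.2 ± 56.3 in cluster 5, 91.3 ± 11.7 in cluster 1 and 90.5 ± 81.3 in cluster 7 to 20.96 ± 17.5 in cluster 9 and 9.27 ± 12.4 in cluster 4. In cluster 10 its level was 28.6 ± 22.2. For Pdgfb, Pdgfc and Pdgfd no neighbouring clusters differed by more than the larger SD.

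Per kilobase of merged exon, the ligand levels in cluster 10 were 41.7 for Pdgfa, 9.07 for Pdgfd, 6.79 for Pdgfb and 2.28 for Pdgfc, beside a Pdgfrb level of 81.3. With the longest coding transcript in place of the merged exons, Pdgfb (9.59) came before Pdgfd (9.13). In cluster 5 the order was Pdgfd at 29.2, Pdgfc at 7.74 and Pdgfa at 1.05. In the other fibroblast clusters it was Pdgfd at 16.1, Pdgfa at 2.17 and Pdgfc at 0.310. Pdgfb was at 0.00499 and 0.0198 in these 2 groups. Pdgfa, a ligand of PDGFRα, thus came first in cluster 10 and Pdgfd, a ligand of PDGFRβ, in both groups of fibroblasts.

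Which members separate mural cells from fibroblasts was tested on reads summed per line, over the 4 lines with at least 3 cells in both classes and with the line as a block (edgeR's quasi-likelihood test). Calls required a log2 fold change of at least 2 in size and, after Benjamini-Hochberg adjustment over all genes tested, a p under 0.05. Of 16092 genes tested, 6.2% were called (2.17% higher and 4.02% lower in cluster 10), and with the median gene at 0 the split was 3.34% and 1.5%. Of the 7 members 4 were called, 2 in each direction. The receptor gene Pdgfra fell by 5.92 on the log2 scale (SE 0.697, adjusted p = 1.14e-05) and Pdgfrl fell by 4.45 (SE 1.22, adjusted p = 0.0348), both lower in 4 of 4 lines. The ligand gene Pdgfa rose by 4.23 (SE 0.822, adjusted p = 0.00288), higher in 4 of 4 lines, and Pdgfb rose by 7.88 (SE 2.08, adjusted p = 0.0281), higher in 3 of 4. Pdgfb passed the filter on low counts through its reads in cluster 10, with a level of 0.0558 in the fibroblast sums. It had too few reads to be tested in either comparison without cluster 10. Its direction was thus set by the filter, and its call adds no support.

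The remaining 3 members did not pass the test. For Pdgfrb the log2 fold change was 0.97 (SE 0.433, adjusted p = 0.192) with higher values in 4 of 4 lines. It was 3.63 (SE 2.41, adjusted p = 0.434) for Pdgfc and -1.34 (SE 1.15, adjusted p = 0.584) for Pdgfd. The median gene of this comparison stood at -0.93, and with the sums scaled to put that gene at 0 the value for Pdgfrb was 1.898, just short of the fold required. The calls of Pdgfrl and Pdgfb were less stable than the others: with limma on log2 CPM their adjusted p was 0.0807 and 0.119, and Pdgfrl had 0.118 with the median gene at 0. Without Acta2GFP the adjusted p was 0.0807 for Pdgfrl and 0.122 for Pdgfb, and without Cspg4dsRED it was 0.161 and 0.156. Without PdgfrbGFP it was 0.0802 for Pdgfb. Without the plate bladder_881s, a choice made after seeing the data, the same 4 members and 7.59% of all genes were called.

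**Figure D2:**
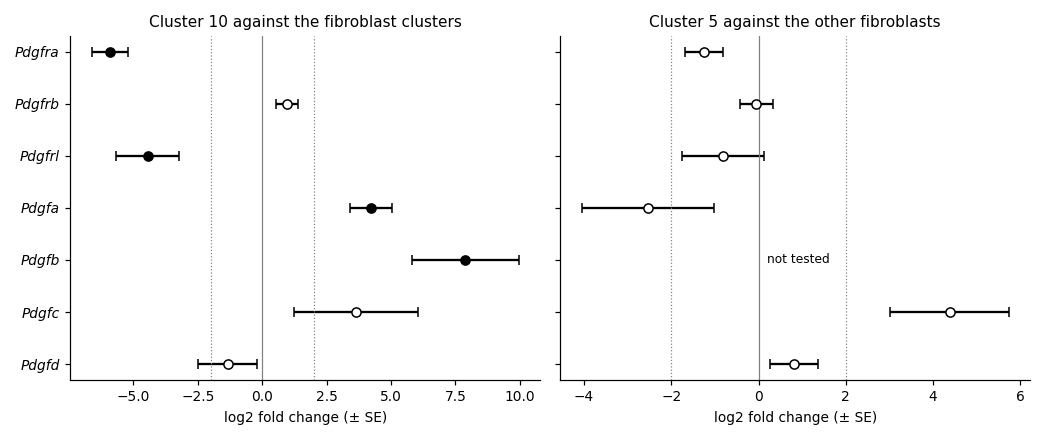
Log2 fold change (± SE) of each member from the edgeR fit, for cluster 10 against the fibroblast clusters (left) and cluster 5 against the other fibroblast clusters (right). Filled points were called, open points were not, and dotted lines mark the fold change of 2 required on the log2 scale. The 4 filled points on the left are Pdgfra and Pdgfrl below 0 and Pdgfa and Pdgfb above 0, and the right panel has none.

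The balance of the receptors does not depend on scaling and was compared as the log2 ratio of Pdgfra to Pdgfrb reads per kilobase. In the fibroblast clusters it was 0.02 in Cspg4dsRED, -0.11 in Acta2GFP, -0.24 in C57BL6 and -0.43 in PdgfrbGFP cells, near an equal number of reads per kilobase. In cluster 10 it was -7.74, -6.87, -7.34 and -6.41 in the same lines. The difference was -6.90 ± 0.74 (SD, n = 4 lines) and lay below 0 in 4 of 4 lines. A two-sided exact sign-flip permutation test gave p = 0.125, the smallest that 4 lines allow. With plate and line as the unit the difference was -6.87 (n = 7 units) and the exact sign-flip permutation p = 0.0156, again the smallest possible, but units of 1 line or plate are not independent.

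Among the fibroblasts the balance was less even than these pooled values show. It was -0.55 ± 0.21 in cluster 3, the largest, and ranged over lines from -1.86 to 4.79 in cluster 1, where the 5 PdgfraGFP cells had a Pdgfrb level of 4.29 against 254.6 to 354.4 in the other lines. For cluster 5 the log2 ratio was -0.23 in PdgfrbGFP, -1.19 in PdgfraGFP, -1.63 in C57BL6 and -2.43 in Cspg4dsRED cells. It was -0.44, -0.01, -0.18 and 0.05 in the other fibroblast clusters. The difference of -1.22 ± 1.11 (SD, n = 4 lines) was below 0 in 3 of 4 lines (two-sided exact sign-flip permutation test, p = 0.25). It was -0.42 with plate and line as the unit and -0.81 without Cspg4dsRED, which had 3 cells in cluster 5. Without bladder_881s, an alternative added after seeing the data, it was -1.34 and below 0 in 4 of 4 lines. With 4 lines the test cannot go below 0.125 and so cannot reach 0.05.

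Cluster 5 was tested against the other fibroblast clusters in the same way, over C57BL6, Cspg4dsRED, PdgfraGFP and PdgfrbGFP. Of 16145 genes 0.762% were called by edgeR's quasi-likelihood test, 0.297% higher and 0.465% lower, a split that became 0.65% and 0.266% with the median gene (-0.77) at 0. By the same test 0 of the 6 members tested were called, with 2 at an unadjusted p under 0.05, as were 13.2% of all genes. These were Pdgfc, with a log2 fold change of 4.38 (SE 1.36, unadjusted p = 0.00787, adjusted p = 0.194) and higher values in 3 of 4 lines, and Pdgfra, with -1.25 (SE 0.439, unadjusted p = 0.0156, adjusted p = 0.232) and lower values in 4 of 4 lines. Pdgfc was called by DESeq2 (adjusted p = 0.000328), which called 1 member and 8.68% of all genes, and by edgeR on sums per plate and line (adjusted p = 0.0144), which called 3% of all genes, while limma called 0 members. Pdgfb had too few reads to be tested. For Pdgfd the log2 fold change was 0.80 (SE 0.55) with higher values in 4 of 4 lines, for Pdgfa -2.54 (SE 1.51), for Pdgfrl -0.82 (SE 0.948) and for Pdgfrb -0.05 (SE 0.381). The directions of Pdgfrb and Pdgfrl changed with the scaling or the lines used. The fold change of Pdgfc rested on cells in which it was abundant: 39 of the 76 cells of cluster 5 had a read, the median among them was 38 reads and the highest was 372.

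Variation among the other 9 fibroblast clusters was tested with 1 F test per gene over sums of line and cluster (edgeR). Of 14776 genes 2.54% were called, and of the 6 members tested 0. Here 1 member had an unadjusted p under 0.05, as had 15.1% of all genes. This was Pdgfc, at 0.00169 and an adjusted p of 0.0590 by edgeR, and the other 5 had adjusted p-values of 0.539 or more. With sums per plate and line edgeR called Pdgfra (adjusted p = 0.00563) and Pdgfc (0.00395), and without bladder_881s it called Pdgfc (0.0354), while DESeq2 and limma called 0 members. Of all genes, these fits called 6.56% with sums per plate and line and 2.63% without bladder_881s. Pdgfrl and Pdgfd were not called by this test over all 9 clusters, although their levels in some pairs of clusters did not overlap between lines. The Pdgfrl level was 52.5 to 98.9 over lines in cluster 3 and 0.595 to 15.7 in cluster 7. The Pdgfd level was 77.1 to 104.9 in cluster 1 and 8.56 to 33.4 in cluster 9. Both pairs were chosen after their values were seen and were not tested on their own. In cluster 9, 85 of 91 cells were Cspg4dsRED, a line absent from cluster 1, so the Pdgfd pair mixes cluster and line.

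How many cells carried each transcript was compared at equal depth, with 50000 reads of mouse genes drawn at random from every cell and 6 shallower cells left out. Intervals are exact Clopper-Pearson 95% intervals and cover counting error only, since reads of Smart-seq2 are not independent molecules and cells of 1 line are not independent animals. In cluster 10, a Pdgfrb read was found in 76.8% of cells (interval 68.4% to 83.9%), a Pdgfa read in 49.6% (40.5% to 58.7%), a Pdgfra read in 32.8% (24.7% to 41.8%) and a Pdgfb read in 11.2% (6.26% to 18.1%). In the 9 fibroblast clusters the shares were 84.6%, 10.5%, 93.003% and 0.629%. The share with a Pdgfc read was 44.7% in cluster 5 (33.3% to 56.6%), 16% in cluster 10 and 4.40% in the other fibroblast clusters, and within the latter 13.2% in cluster 8. The share with a Pdgfd read was 71.1% in cluster 5, 55.3% in the other fibroblast clusters and 29.6% in cluster 10.

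Asked for at least 10 reads in a thinned cell, Pdgfra was present in 0 of the cells of cluster 10, where the limit of 3 counts of the total is 2.4% and the exact Clopper-Pearson upper bound 2.91%, and in 73.98% of cells of the 9 fibroblast clusters. At the same depth Pdgfrb passed 10 reads in 61.6% of cluster 10 cells and 65.6% of cells of the 9 fibroblast clusters. The Pdgfra-positive cells of cluster 10 thus carried few reads each, with a median of 2 in the unthinned counts. For Pdgfb at least 10 reads were found in 8% of cluster 10 cells (interval 3.90% to 14.2%) and in 0 of 1272 cells of the 9 fibroblast clusters, where these bounds are 0.236% and 0.290%.

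Both receptors were read together in most fibroblasts. In the 9 fibroblast clusters 80.7% of thinned cells had both, 12.3% Pdgfra alone, 3.93% Pdgfrb alone and 3.07% neither. Cluster 5 was close to this, with 71.1%, 13.2%, 9.21% and 6.58%. In cluster 10, 48% had Pdgfrb alone, 28.8% had both, 4% had Pdgfra alone and 19.2% had neither. Among fibroblast clusters the share with both was highest in cluster 3 (93.6%) and lowest in cluster 9 (46.2%) and cluster 4 (23.8% of 21 cells). Cspg4dsRED cells made up 85 of the 91 cells of cluster 9 and 17 of the 23 of cluster 4. Differences between these clusters and between lines thus rest largely on the same cells.

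**Figure D3:**
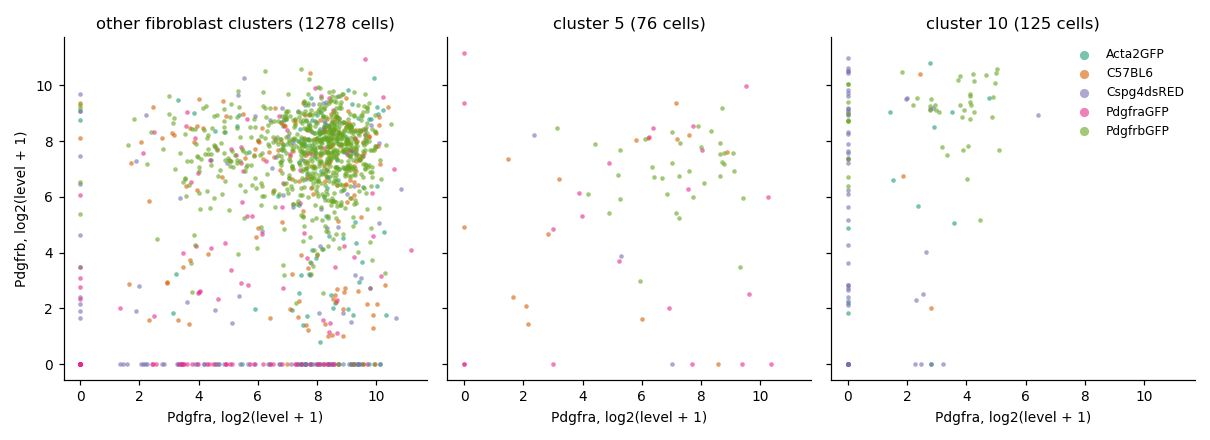
Level of Pdgfra against Pdgfrb in single cells (log2 of reads per 500000 endogenous reads, plus 1), coloured by mouse line. Most fibroblasts sit in the upper right with both receptors. Most cells of cluster 10 lie along the left side, with a Pdgfrb level and a low or absent Pdgfra level.

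The share of fibroblasts with both receptors differed between mouse lines. Among all fibroblast cells, both were read in 95.8% of PdgfrbGFP, 77.01% of C57BL6, 73.5% of Acta2GFP, 48.3% of PdgfraGFP and 36.3% of Cspg4dsRED cells. Pdgfra alone was read in 1.31%, 13.9%, 23.9%, 31.97% and 41.5% of them. On plate bladder_515s, which held cells of both lines, the share with both was 95% in PdgfrbGFP and 73.5% in Acta2GFP cells. On the 3 plates of PdgfrbGFP it was 95% to 96.3%, with all cells thinned to the same depth. Thinning evens out reads, not the number of genes read. Before thinning, the median number of genes was 6898 in PdgfrbGFP, 4650.5 in C57BL6, 4064 in Acta2GFP, 3082 in PdgfraGFP and 2846 in Cspg4dsRED cells. Lines had the same order by their share with both receptors. On bladder_515s the order was reversed, with 3822 genes in PdgfrbGFP and 4064 in Acta2GFP cells. The part of genes read per cell in the shares was not tested. Since the line sets which cells were sorted, and with 1 unit per line, line and sort cannot be told apart and the difference between lines was not tested.

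**Figure D4:**
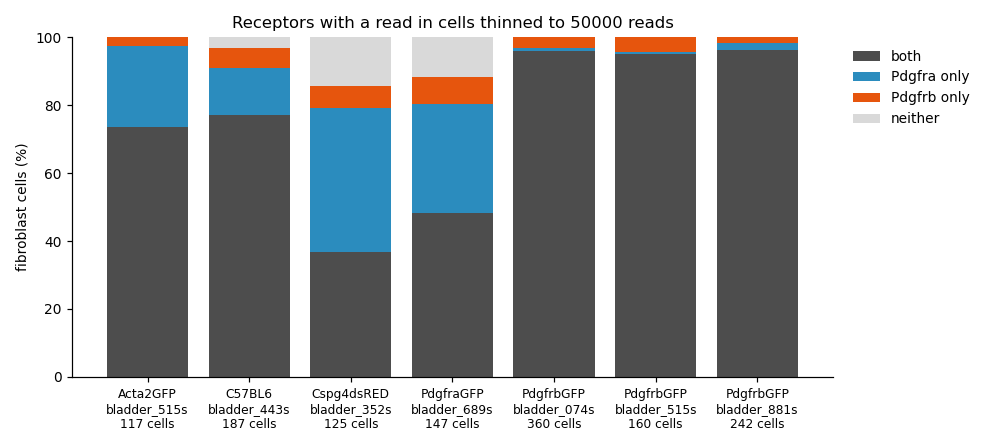
Share of fibroblast cells (clusters other than 10) with a read of both receptors, of 1 or of neither, after thinning to 50000 reads, for each plate and line, leaving out the 10 Cspg4dsRED fibroblasts of bladder_689s. The 3 PdgfrbGFP bars have between 95% and 96.3% of cells with both, and the Cspg4dsRED bar has 36.8%.

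No read of either receptor was found in 41 cells of the table, before thinning. Of these, 19 belonged to cluster 10, all of them Cspg4dsRED cells (16 of 49 on bladder_352s and 3 of 16 on bladder_689s). In fibroblast clusters the count was 12 in Cspg4dsRED, 9 in PdgfraGFP, 1 in C57BL6 and 0 in PdgfrbGFP and Acta2GFP cells. Cells of cluster 10 from PdgfrbGFP, Acta2GFP and C57BL6 mice all had a read of a receptor. The median depth was 142832 reads in Cspg4dsRED and 120376 in PdgfraGFP cells. It was 142819 in Acta2GFP cells and 109965 in PdgfrbGFP cells of bladder_515s, and 0 cells of either lacked both receptors. The median number of genes read was 2846 in Cspg4dsRED and 3082 in PdgfraGFP cells. For Acta2GFP cells it was 4064, and for PdgfrbGFP cells of bladder_515s it was 3822. Why some cells had no read of a receptor was not tested.

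Ligand and receptor transcripts were read in the same mural cells. Of the 96 cluster 10 cells with a Pdgfrb read, 52.1% had a Pdgfa read and 12.5% a Pdgfb read, against 41.4% and 6.90% of the 29 cells without one. Cells with both Pdgfb and Pdgfrb numbered 12, and 2 had Pdgfb alone. Of the 41 cells with a Pdgfra read, 58.5% had a Pdgfa read, against 45.2% of the others. These shares pool lines and plates. Pdgfa and Pdgfb were read together in 8 cells, 12.9% of the 62 Pdgfa-positive and 57.1% of the 14 Pdgfb-positive cells. In cluster 5, Pdgfc was read in 45.3% of cells with Pdgfra and in 41.7% of the 12 cells without, shares that differ by less than the counting error of so few cells. In the 9 fibroblast clusters Pdgfd was read in 59.6% of cells with Pdgfrb and 31.6% of cells without, a contrast that mixes lines. Within lines Spearman's rho of Pdgfrb and Pdgfd was -0.12 in Cspg4dsRED, -0.08 in PdgfraGFP, 0.07 in C57BL6, 0.10 in PdgfrbGFP and 0.17 in Acta2GFP cells.

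For Pdgfra and Pdgfrb, Spearman's rho over thinned cells was 0.31 in cluster 10, but 0.02 within its Cspg4dsRED cells (65 cells) and 0.20 within its PdgfrbGFP cells (45 cells). In the 9 fibroblast clusters it was 0.13 over all 1272 cells and, within lines, -0.09 in Acta2GFP, 0.01 in C57BL6, 0.03 in PdgfrbGFP, 0.17 in Cspg4dsRED and 0.30 in PdgfraGFP cells. These are descriptions over cells that share plates and depth.

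Mural genes were compared between cluster 10 cells with and without a read of a member. Acta2 was read in 100% of the cells with and without each member. Rgs5, a pericyte gene, was read in 64.3% of the 14 Pdgfb-positive cells and 42.3% of the others (levels 575.2 and 347.7), and in 25% of the 20 Pdgfc-positive cells and 48.6% of the others (levels 134.7 and 418.6). For Pdgfc the shares of 2 other pericyte genes had the opposite order, but their levels did not. Kcnj8, a potassium channel gene, was read in 40% and 18.1% of these cells at levels of 35.4 and 71.9. Cspg4, the gene of NG2, was read in 100% and 88.6% at levels of 274.2 and 400.9. Des, the gene of desmin, was read in 100% of the Pdgfb-positive and 93.7% of the other cells, at levels of 643 and 1163. Kcnj8 was read in 14.3% and 22.5% of these, at levels of 6.93 and 73.5. A higher Rgs5 level was not particular to Pdgfb-positive cells. Cells with Pdgfra (571.6, against 276.3 without), Pdgfrb (440.5 and 150.4) and Pdgfrl (426.6 and 359.8) also had it. The same held for Pdgfa (469.95 and 277.9) and Pdgfd (629.0 and 265.6), although for Pdgfa the share of cells had the opposite order. The groups of Pdgfb- and Pdgfc-positive cells are small, and none of these differences was tested.

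Because PDGF-B is made by endothelial cells, the endothelial markers were read in the same cells. In cluster 10 the 7 endothelial markers summed to a level of 81.5 (12.1 to 230 over lines), with Emcn at 55.3, Pecam1 at 12.8, Cdh5 at 0.220 and Erg at 0.179, against 45.9 (35.6 to 52.8) in the 9 fibroblast clusters. The range over lines in cluster 10 enclosed that of the fibroblasts, and its highest line raised the mean. Taken as a mean over cells rather than over lines, the summed level was 20.4 in the 18 cluster 10 cells with a Pdgfb read before thinning. It was 50.5 in the cells without. The platelet markers, taken because platelets carry PDGF, summed to 0.162 and 1.02 in these cells. An endothelial marker was read in 18 of the 18 Pdgfb-positive cells and in 95.3% of the others, and a platelet marker in 5.56% and 11.2%. The median depth of these cells was 168964 and 118982 reads of mouse genes. The part of RNA from other cells in the Pdgfb reads was not tested.

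Several of these shares differed between plates. The deepest plate, bladder_881s, held PdgfrbGFP cells only. All 20 cluster 10 cells there had a Pdgfra read and 19 a Pdgfrl read. In cluster 10 cells of the same line on bladder_515s these numbers were 11 and 2 of 21, and on bladder_074s they were 4 and 3 of 4. After thinning, the Pdgfra share was 85% on bladder_881s, 33.3% on bladder_515s and 50% on bladder_074s, and the Pdgfrl share was 65%, 4.76% and 50%. In Cspg4dsRED cells, the most numerous in cluster 10, the thinned Pdgfra share was 16.3% on bladder_352s and 12.5% on bladder_689s. In fibroblasts of all lines, 17.4% of cells had a Pdgfb read on bladder_881s and 0.989% elsewhere, and after thinning 3.31% and 0.0904%. The Pdgfc share of fibroblasts was 16.9% there and 4.43% elsewhere. The Pdgfa share was 70% against 45.7% in cluster 10 and 11.6% against 10.2% in fibroblasts. Comparisons with all other plates mix plate and line, and the part of the plate in these shares was not tested.

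**Figure D5:**
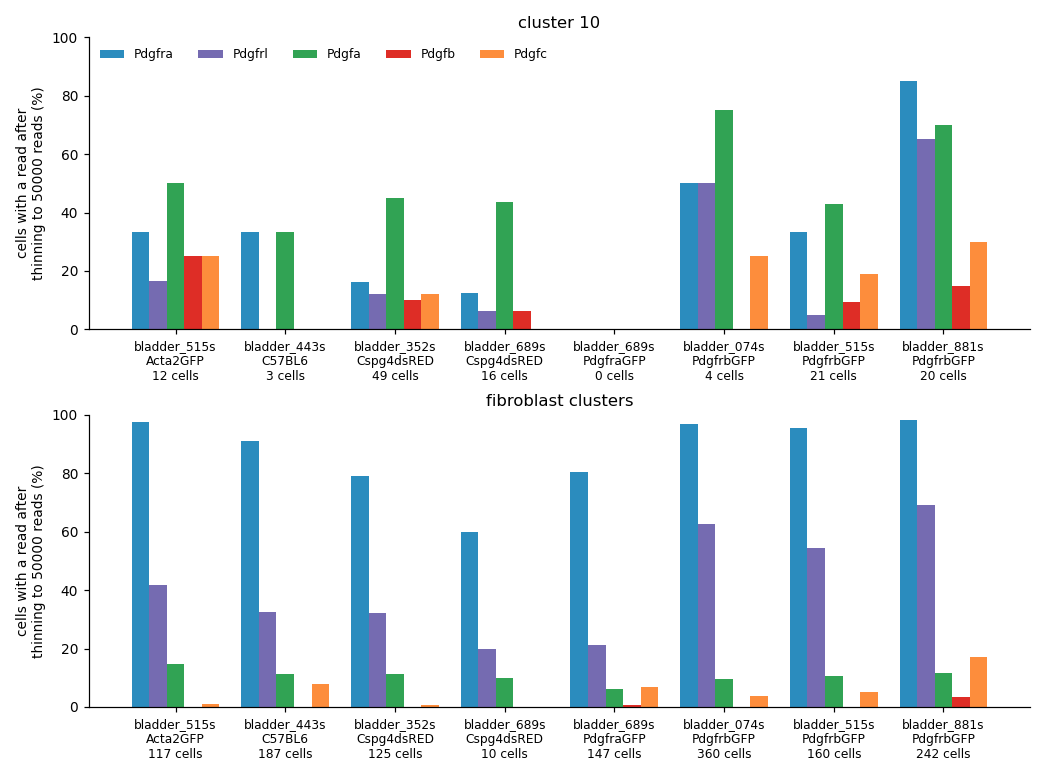
Share of cells with a read of 5 members after thinning to 50000 reads, by plate and line, in cluster 10 (top) and the fibroblast clusters (bottom). On bladder_881s the cluster 10 cells had a Pdgfra read in 85% of cells, while PdgfraGFP had 0 cells in that cluster.

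Single reads of 2 ligands also followed the position of a cell in its plate. Fibroblasts with under 10 Pdgfc reads had at least 1 such read in 15.6% of 930 cells where another cell with 10 or more Pdgfc reads shared their row or column, and in 1.35% (5 of 371) where none did. On bladder_881s every such cell had a neighbour of this kind, and over the other 5 plates, which held both kinds, the share with one was 9.13% of 712 cells. Each of these plates showed this order, for instance 12.6% against 0% of 63 cells on bladder_074s and 8.73% against 1.89% on bladder_443s. For Pdgfa the shares were 20.3% of 1108 cells and 8% (interval 4.44% to 13.1%) of the rest, in the same order on 5 of 6 plates. They were almost equal on bladder_352s (14.7% and 14.3%) and bladder_689s (7.41% and 6.82%). Bladder_881s gave 220 cells with such a neighbour, 85 of them with a read, but only 6 cells without. The pooled Pdgfa shares, from counts before thinning, therefore mix position and plate. For Pdgfb they were 4.02% and 3.90% over all plates, and 4.02% (interval 1.75% to 7.77%) and 6.92% (5.03% to 9.24%) over the plates with both kinds, the opposite order with overlapping intervals. In cluster 10, Pdgfra was read in 55.7% of the 61 cells whose row and column held more Pdgfra reads than the plate's median and in 39.1% of the other 64, with overlapping intervals. This comparison was chosen after seeing the data and its cause was not tested. Shares of fibroblasts with a single read of Pdgfa or Pdgfc are to be read beside it.

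Other genes of the pathway were taken from 6 lists. Of the 60 genes tested in cluster 10 against the fibroblasts 6 were called by edgeR, 10% beside the 6.2% over all genes. Among the proteases that process PDGF ligands and their partners, 2 of 7 were called, both lower: Pcsk5, a proprotein convertase (log2 fold change -6.11, SE 1.11, adjusted p = 0.00145), and Plat, tissue plasminogen activator, which activates PDGF-CC (-4.11, SE 0.779, adjusted p = 0.00225). Plat had a level of 16.96 ± 14.9 in cluster 10, 167.6 ± 141.99 in cluster 5 and 188.1 ± 38.7 in the other fibroblast clusters, so it was also read in the cluster with the highest Pdgfc level. Of the 6 co-receptors and ligand-binding matrix proteins, 2 were called, both lower: the neuropilin gene Nrp2 (-4.28, SE 1.17, adjusted p = 0.0347) and the endocytic receptor gene Lrp1. Kitl, the ligand of the related receptor Kit, was higher (3.93, SE 1.1, adjusted p = 0.0376), with a level of 92.5 ± 60.9 in cluster 10 and 4.08 ± 2.83 in the 9 fibroblast clusters. Of these, cluster 4 had 39.3 ± 30.1, and its lines (18.1 and 60.6) overlapped the range of cluster 10 (22.4 to 162.4).

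None of the 15 adaptors and effectors at the receptor, among them Grb2, Shc1 and Plcg1, was called by edgeR in this comparison, and their median log2 fold change was 0.31 beside -0.93 over all genes. Of the 11 negative regulators 1 was called, Socs3, which rose by 2.32. Of the 9 early response genes 0 were called by edgeR, with a median of 0.62. Fos (log2 fold change 1.00, adjusted p = 0.00364) and Jun (0.98, adjusted p = 0.0476) were higher in 4 of 4 lines and short of the fold required. In cluster 5 against the other fibroblasts 0 of 60 pathway genes were called by edgeR, and Egr1 (-1.38, adjusted p = 0.0276, lower in 4 of 4 lines) was short of the fold. Lrp1 (-2.41), Socs3, Fos, Jun and Egr1 were named after their values were seen.

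Among the other 9 fibroblast clusters 9 of 59 pathway genes were called by edgeR (15.3%, beside 2.54% over all genes). None of the members was called. The clusters came from these same values and the lists were chosen with earlier results known, so these shares are descriptions only. Kit (adjusted p = 0.0216) had a level of 7.51 ± 7.12 in cluster 8 and 1.55 or less in the other clusters. Kdr, a VEGF receptor gene of the same superfamily (adjusted p = 0.0246), was highest in cluster 8 (16.1 ± 13.3) and cluster 6 (11.2 ± 11.7). Thbs1, thrombospondin (adjusted p = 0.00298), ranged from 11.8 ± 8.04 in cluster 2 to 292.1 ± 282.4 in cluster 4, and Spry1, an inhibitor of receptor tyrosine kinase signalling (adjusted p = 0.0125), from 15.5 ± 7.00 in cluster 7 to 226.5 ± 116.96 in cluster 6. The other 5 were Sparc and the early response genes Fos, Junb, Egr1 and Ier2, named after their values were seen.

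The genes most like each member were found by Pearson's r of log2(level + 1) over 29 sums of line and cluster with at least 10 cells, among 9914 genes with a mean level of at least 5. For Pdgfra these were Ms4a4d, Xdh and Glt8d2 (r = 0.92 for each) and for Pdgfrb Stim1, Sucla2 and Lrrc32 (0.83, 0.82 and 0.82). Pdgfrl was nearest to Vgll3, Aldh1a1 and Lox (0.84, 0.80 and 0.78), and Pdgfa to Coq10b, Sorbs2 and Cacna1c (0.76, 0.75 and 0.75). Pdgfc was nearest to Cap2, Palld and Runx1 (0.82 for each) and Pdgfd to Rnf145, Foxf1 and Exoc4 (0.88, 0.86 and 0.83). Pdgfb was under the minimum level. The sums share lines, plates and depth, and with so many genes the highest of the correlations is high by selection. Among the 26 fibroblast sums alone the nearest gene was the same for Pdgfrb, Pdgfrl, Pdgfc and Pdgfd, but was Pla2g4a (0.81) for Pdgfra and Flnc (0.73) for Pdgfa.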

How the data were processed

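Per the labels and the study's methods, single cells of male mouse bladder were sorted into 384-well plates and sequenced with Smart-seq2. The authors trimmed reads with trim galore, aligned them with TopHat2, removed what the methods call doublets with samtools and counted with featureCounts, and the deposited values are raw counts of reads per gene and cell, with 92 spike-in rows. The annotation release and strand setting are not given in the sources used here, and the submitters' processing notes name GRCm38. Symbols and coordinates came from GENCODE M21, which held 46005 of the 46517 identifiers, and promoters from RefSeq, which held 4 of the 7 members.

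Spike-ins were left out of totals and tests. Counts were summed per mouse line and cluster group with at least 3 cells and tested with edgeR 4.0.16 (quasi-likelihood, TMM, filter on low counts, line as block) in R 4.3.3. Alternatives were DESeq2 1.42.0, limma 3.58.1, other scalings, filters and units, and leaving out each line. Levels, shares and exact sign-flip permutation tests used Python 3.11.15 and scipy 1.17.1. The scripts were tested on simulated data. The members and gene lists were chosen with earlier results of these data known. Named pathway genes were the 4 called genes with the largest change in a comparison, and the 3 genes with the highest correlation were named for each member.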

Additional observations from a re-analysis of the deposited data

Results flagged for a closer look

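Of 50 groups of 4 or 5 lines with a mean level of at least 1, 6 held a line far from the others by Dixon's criterion, which chance meets in about 1 in 20 groups. In cluster 5 the C57BL6 line (15 cells) had a Pdgfa level of 11.4, against a median of 0.485 over the other lines. In cluster 6 the Cspg4dsRED line, with 3 cells, had a Pdgfa level of 58.3 against 4.31. In cluster 2 the C57BL6 line (13 cells) stood out for both Pdgfd, at 63.2 against 24.3, and Pdgfrl, at 113.9 against 10.5. In cluster 7 the Acta2GFP line (9 cells) had a Pdgfd level of 232.2 against 53.7. In cluster 1 the PdgfraGFP line, with 5 cells, was low for Pdgfra, at 137.8 against 214.5. Each of these lines had at most 15 cells in its cluster.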

How the results depend on the processing

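No paired analysis was possible by replicate number, because these numbers only name the cells. The block was the mouse line, or the plate and line where sums were made per plate and line, and the receptor balance was compared within the same units. In cluster 10, where 4 members were called, limma called 2 members and 6% of all genes, the fits that left out a line called 2 to 4 members, DESeq2 called 5 (adding Pdgfc, adjusted p = 0.0173), and a median gene at 0 gave 3 members and 4.83% of all genes. Over the 12 alternative fits the adjusted p ran from 2.06e-12 to 0.00511 for Pdgfra and from 6.09e-08 to 0.0299 for Pdgfa, so both stayed called. It ran from 9.76e-05 to 0.161 for Pdgfrl and from 4.42e-11 to 0.156 for Pdgfb. In cluster 5, DESeq2 and sums per plate and line each called 1 member, and the fits that left out a line called 0. Among the other 9 fibroblast clusters, sums per plate and line called 2 members and leaving out bladder_881s, chosen after seeing the data, called 1. The difference in receptor balance was -6.87 with plate and line as the unit, at p = 0.0156 in an exact sign-flip permutation test, and -7.21 to -6.61 without 1 line. In cluster 5 the log2 fold change of Pdgfrb was 0.10 with median-of-ratios scaling, DESeq2 or without bladder_881s, 0.72 with the median gene at 0 and -0.31 to 0.23 without 1 line (0.050 without C57BL6). That of Pdgfrl was 0.33 with sums per plate and line, 0.063 with at least 10 cells per sum and -1.42 to 0.063 without 1 line. The causes were not tested. The share of all genes called in cluster 10 was 6.2%, but 18.6% with DESeq2, 15.9% with sums per plate and line and 2.88% to 5.79% without 1 line. In cluster 5 it was 0.762%, but 8.68%, 3% and 0.559% to 1.31% in these fits, 0.279% with limma, 0.697% of a larger number of genes with no filter and 1.31% with at least 10 cells per sum. Among the 9 clusters it was 2.54%, but 6.09%, 6.56% and 0.0854% (without PdgfrbGFP) to 2% in these fits, 1.56% with limma and 1.27% with at least 10 cells per sum.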
